A study of Mus musculus with 6 samples.

Results

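The immediate early genes Fos, Fosb, Jun, Junb, Egr1, Egr3, Ier2, Arc, Nr4a1 and Npas4 were followed in nuclei of the degenerating mouse retina after an injection of IL-27 or of saline into the vitreous. These 10 genes, of 32285 in the count tables, were listed by symbol, and the list was made with earlier results of these data known. All libraries came from mice of the strain B6.CXB1-Pde6b-rd10/J, in which both groups carry the rd10 mutation of the rod phosphodiesterase gene Pde6b and lose their rods, and all retinas were taken at post-natal day 20. The Saline group had 3 libraries (replicates 1, 2 and 6) from retinas injected with vehicle at post-natal day 18, and the IL-27 group had 3 (replicates 4, 5 and 10) from retinas injected on the same day with 20 ng of recombinant IL-27 protein. The labels do not say whether the libraries came from separate animals or from pools, so p-values measure only the spread between these libraries. There was no uninjected or wild-type group. The comparison asked whether the mRNA of these genes in the nuclei differed between IL-27 and saline, first in the sum of the named types of nuclei, and then in amacrine-like and ganglion cell-like nuclei apart.

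Immediate early genes are transcribed within minutes of a stimulus such as synaptic activity, calcium entry, a growth factor or tissue injury, by transcription factors that are already present in the cell (CREB, SRF and MEF2), so no new protein is needed. Fos, Fosb, Jun and Junb encode subunits of the transcription factor AP-1, Egr1 and Egr3 encode zinc finger transcription factors, and Nr4a1 encodes an orphan nuclear receptor. Npas4 encodes a transcription factor that neurons make in response to calcium entry, Arc encodes a protein that acts at synapses in the removal of AMPA receptors, and Ier2 encodes a nuclear protein of the early response. In the retina, Fos and Egr1 have long been used as markers of amacrine and ganglion cells that respond to light. Their transcripts are short-lived, so nuclei show the recent transcription of these genes.

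The promoters are shown because the members are induced through short DNA elements next to the start of transcription. Promoter sequences of 6 members (Fos, Fosb, Jun, Junb, Nr4a1 and Npas4) were matched in RefSeq (build GRCm38.p6), and Egr1, Egr3, Ier2 and Arc were not in that table. The core of the cAMP response element, TGACG on either strand, lay within the 250 bases before the start in 5 of the 6 (Fos, Fosb, Junb, Nr4a1 and Npas4), and in 17.8% of all 32851 promoters. The full element TGACGTCA was in none of the 6 and in 1.55% of all promoters. An EGR site, GCGNGGGCG, was found in Fosb and Nr4a1 (4.70% of all), and neither an AP-1 site, TGANTCA (6.75% of all), nor a CArG box, the SRF element (1.47% of all), was found in the 6. These motifs were searched on both strands, a full element also counts as a core, and a match describes letters and not a bound site. The 200 bases before the start are given for 3 members that carry the results below, 5′ to 3′ in the direction of transcription, with each TGACG or its reverse complement in capitals. They are chr12:85473690-85473889 (plus strand) for Fos, chr8:84978749-84978948 (minus strand) for Junb and chr15:101266646-101266845 (plus strand) for Nr4a1. The stretch of Nr4a1 lies inside the annotated gene, between exons of a longer transcript. That of Npas4, with 2 cores, lies wholly within annotated exon sequence of the gene (200 of 200 bases) and is not shown.
Fos: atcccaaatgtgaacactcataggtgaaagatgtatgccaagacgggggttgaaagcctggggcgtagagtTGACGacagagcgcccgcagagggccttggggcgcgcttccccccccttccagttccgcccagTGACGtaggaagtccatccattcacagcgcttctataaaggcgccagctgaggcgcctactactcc
Junb: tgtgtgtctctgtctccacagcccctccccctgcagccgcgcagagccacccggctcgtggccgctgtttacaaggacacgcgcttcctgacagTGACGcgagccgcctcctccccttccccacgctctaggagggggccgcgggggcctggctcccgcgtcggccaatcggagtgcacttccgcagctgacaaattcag
Nr4a1: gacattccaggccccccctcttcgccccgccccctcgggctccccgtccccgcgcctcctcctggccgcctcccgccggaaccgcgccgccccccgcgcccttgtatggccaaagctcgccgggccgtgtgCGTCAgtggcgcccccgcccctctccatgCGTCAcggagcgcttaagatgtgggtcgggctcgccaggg
Fos carried 2 cores in this window, 129 and 66 bases before the start, Junb carried 1 at 106 bases, and Nr4a1 carried 2, at 69 and 40 bases, besides 2 more at 233 and 213 bases.

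The 6 libraries held 8968 to 9965 barcodes and 36678332 to 48260748 UMIs (unique molecular identifiers, each standing for 1 captured RNA molecule), and IL-27 replicate 10 was the shallowest. After filters and removal of doublets, clusters were named from marker genes, and 50360 nuclei were used. They were 15118 rod-like, 3331 cone-like, 10351 bipolar-like (BC), 12058 amacrine-like (AC), 486 horizontal-like (HC), 2066 ganglion cell-like (RGC), 4757 Muller glia-like, 1546 microglia-like, 293 astrocyte-like, 238 endothelial-like and 116 pericyte-like nuclei. The markers of AC summed to 3051 to 3179 CPM (the UMIs of a gene scaled to the same total in every sum) in AC of the Saline libraries and 2925 to 3227 CPM in those of IL-27, and the markers of RGC summed to 1867 to 2023 and 1781 to 1929 CPM in RGC. Each of these lists was higher in its own type than in any other. IL-27 replicate 10 stood apart in composition, with rods making up 42.0% of its named nuclei against 24.1% to 33.1% in the other 5 libraries, and it had the highest mitochondrial share, 0.4998% against 0.318% to 0.398%. For the sum, AC and RGC, the main values that rest on it are given with and without it below. For the other types no fit without it is given. There were 372 barcode sequences shared between libraries, of 56634 barcodes.

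The members were not evenly spread over the types. Npas4 was read almost only in AC and RGC. It reached 7.33 ± 2.09 CPM in AC and 6.46 ± 3.03 CPM in RGC (SD over 6 libraries), and no other type exceeded 0.900 ± 0.853 CPM, the value in rods. AC and RGC did not differ from each other beyond this spread, whereas RGC stood above rods in all 6 libraries. A Npas4 UMI was present in 479 of 12058 AC nuclei (3.97%, 95% exact binomial interval 3.63 to 4.34%) and in 5.37% of RGC. In Muller glia it was present in 3 of 4757 nuclei (0.0631%), and in HC in 0.412%. The median depth was 5505 UMIs in AC, 9525.5 in RGC, 4432 in Muller glia and 9901.5 in HC, so HC nuclei had a low share at a higher depth than AC. Intervals on shares cover counting error only.

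Egr1 and Nr4a1 were highest in cones, the photoreceptors lost after the rods in this strain. Egr1 measured 151 ± 47.8 CPM in cones, above every other type in all 6 libraries next to it in order (pericytes, 44.9 ± 37.7 CPM, from 16 UMIs), and was lowest in HC, at 3.50 ± 2.08 CPM. In AC it measured 15.4 ± 5.80 CPM, which did not differ beyond the spread from BC (14.6 ± 5.50 CPM). Nr4a1 measured 115 ± 16.7 CPM in cones, 55.2 ± 22.6 CPM in rods, and 31.5 ± 11.4 and 30.9 ± 7.44 CPM in RGC and AC, which did not differ. Each of these steps except the last held in all 6 libraries. Muller glia had little Nr4a1, 3.01 ± 1.31 CPM. Egr3 had its highest mean in cones (12.6 ± 6.27 CPM), within the spread of pericytes (10.1 ± 11.7 CPM, from 3 UMIs), and stayed under 1 CPM in AC, at 0.924 ± 0.492 CPM.

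The AP-1 genes had their highest means in glia or rods. Fos was highest in Muller glia (47.3 ± 37.5 CPM) and lowest in HC (2.22 ± 0.626 CPM), with RGC at 15.6 ± 7.87 and AC at 12.7 ± 3.997 CPM, but no neighbouring types in its order differed by more than the spread over libraries. Jun was highest in astrocytes (161 ± 82.0 CPM, above endothelial cells in all 6 libraries). It had its lowest mean in AC (7.04 ± 0.933 CPM), within the spread of HC (7.26 ± 5.54 CPM). Junb had its highest mean in astrocytes (63.0 ± 50.8 CPM), within the spread of endothelial cells (51.4 ± 26.5 CPM), and measured 16.6 ± 8.49 CPM in RGC and 8.599 ± 2.17 CPM in AC. Fosb was highest in rods, at 6.17 ± 2.47 CPM. Ier2 had its highest mean in endothelial cells, at 50.8 ± 39.9 CPM from 35 UMIs, within the spread of rods (17.3 ± 4.5997 CPM). Arc gave 44 UMIs in all nuclei used and did not exceed 0.342 ± 0.395 CPM in any type, which leaves it near the limit of detection.

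**Figure D1:**
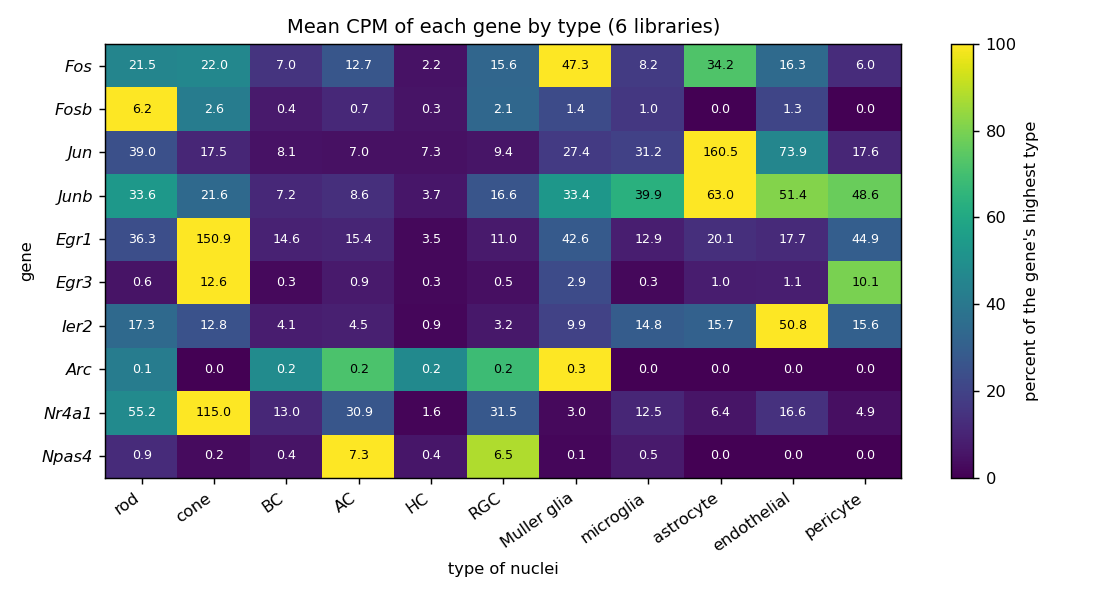
Mean CPM over 6 libraries of each of the 10 genes (rows) in each of the 11 types of nuclei (columns), with the colour as a percentage of the highest type of that gene. Npas4 is bright only in AC and RGC, at 7.33 and 6.46 CPM, while Egr1, Egr3 and Nr4a1 have their highest mean in cones and Jun and Junb in astrocytes.

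In the sum of all types, no member was called different between IL-27 and Saline by edgeR at an adjusted p under 0.05. This was 0 of the 9 members tested (Arc was too low), beside 0.0 percent of all 20162 genes. DESeq2 called none either. At an unadjusted p under 0.05 edgeR placed 0 members lower, beside 0.992 percent of all genes. Of the 9 log2 fold changes 5 were negative and 4 positive, with a median of -0.20 against -0.002 over all genes tested. The median was 0.002 when Saline replicate 6 was left out. With a mitochondrial limit of 1%, under which the sum lacks Muller glia, it was -0.396 and 3 members were lower at an unadjusted p under 0.05, beside 0.965 percent of all genes. Npas4 had the most negative value. It measured 4.26, 4.36 and 4.04 CPM in Saline replicates 1, 2 and 6, and 3.58, 3.26 and 1.49 CPM in IL-27 replicates 4, 5 and 10. All 3 IL-27 libraries were below all 3 Saline libraries (log2 fold change -0.60 ± 0.29 SE, adjusted p = 0.9999). Without IL-27 replicate 10 the log2 fold change was -0.30. Arc was the other member whose groups did not overlap, so 1 of the 9 tested members lay lower without overlap, beside 3.39 percent of all genes. In this sum, fewer nuclei of a type and less RNA per nucleus cannot be told apart. Fos in the sum was 14.9, 14.4 and 25.1 CPM for Saline and 12.6, 16.6 and 15.03 CPM for IL-27, so the groups overlapped, and Saline replicate 6 stood above the rest. Fosb, Jun, Junb and Ier2 had log2 fold changes of 0.04, 0.05, 0.03 and 0.04, and each turned negative under some alternative.

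In AC nuclei, all 8 members that could be tested had negative log2 fold changes of IL-27 over Saline. No member passed the adjusted threshold, with 0 of 8 called by edgeR (smallest adjusted p = 0.9998) and 0 by DESeq2, beside 0.0059 percent (1 of 16963 genes). At an unadjusted p under 0.05, 5 of the 8 were lower (Fos, Junb, Egr1, Nr4a1 and Npas4), beside 1.46 percent of all genes. Their median log2 fold change was -0.59, beside -0.001 over all genes tested. Fosb, with 38 UMIs in Saline, and Arc, with 16, were too low to test.

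Among the receptors and calcium-dependent factors, Nr4a1 in AC measured 34.4, 36.3 and 40.6 CPM in the Saline libraries and 27.2, 26.4 and 20.5 CPM in those of IL-27. The groups did not overlap, and the 3 IL-27 values lay under the lowest Saline value by more than the Saline libraries differed among themselves (log2 fold change -0.57 ± 0.13). Npas4 measured 8.52, 9.64 and 8.65 CPM in Saline and 6.74, 6.64 and 3.79 CPM in IL-27. The Saline libraries were close together and all above those of IL-27, of which replicate 10 was the lowest (-0.62 ± 0.21). Without replicate 10 the log2 fold change of Npas4 was -0.39 and that of Nr4a1 was -0.44.

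Of the EGR and AP-1 genes in AC, Fos measured 15.7, 13.4 and 18.1 CPM in Saline and 12.6, 9.29 and 7.21 CPM in IL-27, again without overlap (-0.68 ± 0.19). Egr1 measured 19.8, 13.8 and 24.6 CPM in Saline and 13.6, 11.9 and 8.72 CPM in IL-27 (-0.75 ± 0.21). Here the lowest Saline library, replicate 2, was barely above the highest IL-27 library, replicate 4. Junb overlapped, at 8.88, 9.23 and 11.7 CPM in Saline and 5.95, 6.25 and 9.58 CPM in IL-27, where replicate 10 lay among the Saline values (-0.46 ± 0.19). Jun (-0.25 ± 0.15), Ier2 (-0.21 ± 0.19) and Egr3 (-0.82 ± 0.48, from 70 UMIs) were on the same side of 0, each by under 2 standard errors. Leaving out 1 library gave -1.60 (without IL-27 replicate 4) to -0.53 for Egr3 and -0.35 to -0.11 for Ier2. In all, 4 of the 8 tested members lay lower without overlap, beside 4.94 percent of all genes, and Arc did so too, with 16 UMIs in Saline and 3 in IL-27.

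Summed levels of 2 other gene lists in AC also differed between libraries. The 12 rod phototransduction genes summed in AC to 705 to 781 CPM in Saline and to 704, 461 and 913 CPM in IL-27 replicates 4, 5 and 10, so the IL-27 libraries lay on both sides of Saline. The 12 heat shock genes, which respond to protein stress, summed to 476, 405 and 505 CPM in Saline and to 380, 326 and 444 CPM in IL-27. Their log2 fold changes in AC were negative for 9 of 10 tested, with a median of -0.26. For the rod genes 8 of 12 were negative, with a median of -0.09. The part of these differences in the members' values was not tested.

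RGC nuclei gave the same side of 0 with larger values for Fos and Junb. All 7 members tested had negative log2 fold changes, with a median log2 fold change of -0.60, beside a median of -0.0 over all genes tested. No member was called by edgeR at an adjusted p under 0.05 (0 of 7, smallest adjusted p = 0.796) or by DESeq2, beside 0.0 percent of 13672 genes. At an unadjusted p under 0.05, 4 of the 7 were lower (Fos, Junb, Egr1 and Nr4a1), beside 2.04 percent of all genes, and the same 4 were lower without overlap between groups, beside 5.76 percent. Without the filter on low counts edgeR called Junb and Fos, beside 0.0835 percent of 23941 genes.

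Junb in RGC measured 19.7, 30.4 and 20.5 CPM in Saline and 9.63, 11.3 and 8.23 CPM in IL-27. The highest IL-27 library was well under the lowest Saline library (log2 fold change -1.21 ± 0.22, adjusted p = 0.796). Fos measured 22.0, 22.6 and 22.0 CPM in Saline and 12.4, 11.6 and 3.20 CPM in IL-27 (-1.15 ± 0.27). The 3 Saline libraries were nearly equal, and IL-27 replicate 10 was far below the other IL-27 libraries. Without that replicate the log2 fold change of Fos was -0.85. Fosb, which pairs with JUN proteins as FOS does, was not tested for its low level, but its groups did not overlap either, with 3.17, 3.53 and 2.64 CPM in Saline and 0.705, 2.26 and 0 CPM in IL-27.

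Nr4a1 in RGC measured 39.9, 46.2 and 31.1 CPM in Saline and 30.8, 28.3 and 12.8 CPM in IL-27, and the groups all but touched at 31.1 and 30.8 CPM (-0.61 ± 0.23). Egr1 measured 12.5, 15.9 and 12.3 CPM in Saline and 9.40, 10.5 and 5.49 CPM in IL-27 (-0.59 ± 0.24). Npas4 overlapped, at 9.07, 8.12 and 7.33 CPM in Saline and 8.22, 5.09 and 0.915 CPM in IL-27 (-0.61 ± 0.40). Its lowest value rests on 213 RGC nuclei of IL-27 replicate 10, the fewest of any library. Without IL-27 replicate 10 the log2 fold change of Npas4 was -0.25 and that of Nr4a1 was -0.37. Without IL-27 replicate 4 that of Npas4 was -1.24. Jun (-0.13 ± 0.27) and Ier2 (-0.33 ± 0.43) did not differ beyond their error, and Ier2 ran from -0.72 to -0.01 with 1 library left out. Without IL-27 replicate 10 the median of the 7 log2 fold changes was -0.39, and 3 of the 7 were lower at an unadjusted p under 0.05. The latter count was 2 when Saline replicate 2 was left out, where 1.1 to 4.26 percent of all genes were lower over the libraries left out, and without IL-27 replicate 4 the median was -0.98. The heat shock genes summed to 468, 420 and 544 CPM in RGC of Saline and to 356, 336 and 428 CPM in those of IL-27, and 8 of 8 tested had negative log2 fold changes (median -0.35). The rod phototransduction genes summed to 598, 556 and 566 CPM in RGC of Saline and to 548, 378 and 626 CPM in those of IL-27, with 10 of 12 log2 fold changes negative (median -0.32). The part of both lists in the members' values was not tested.

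**Figure D2:**
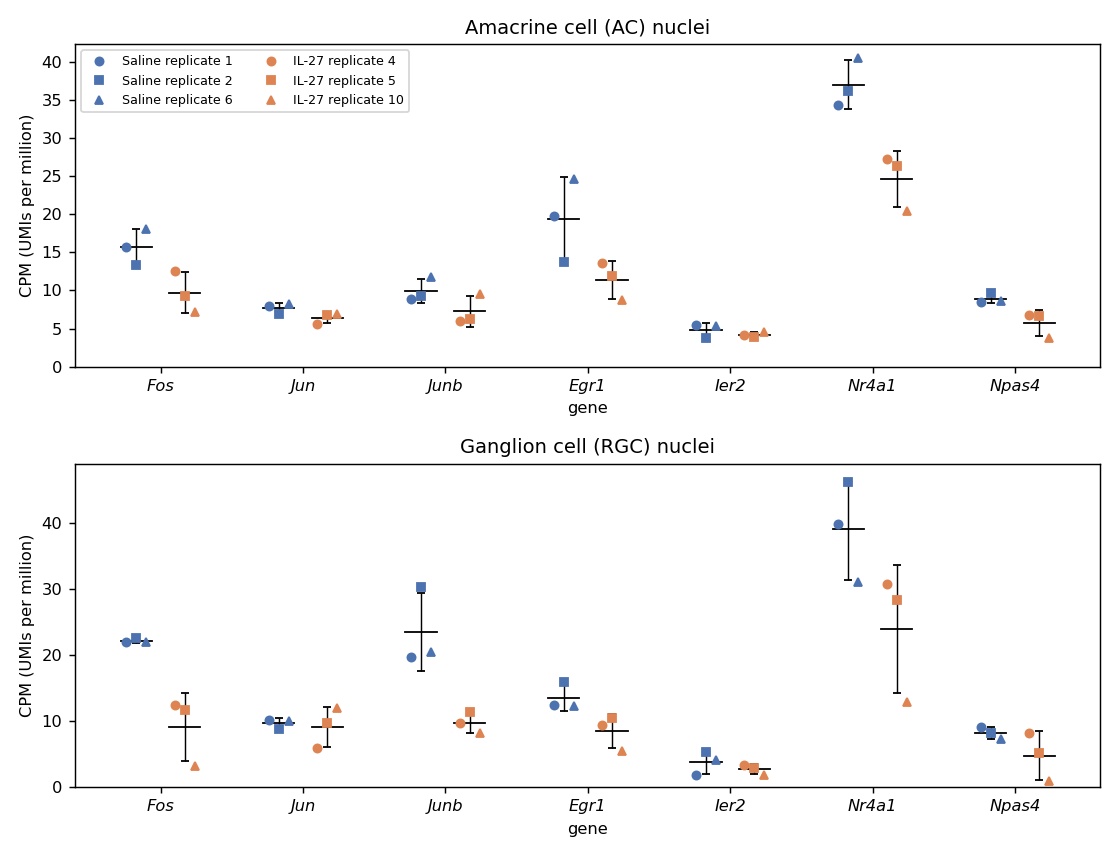
CPM of 7 members in AC (top) and RGC (bottom) nuclei, with each point a library, blue for Saline and orange for IL-27, and bars for the mean and SD of 3 libraries. In AC the IL-27 points of Fos, Egr1, Nr4a1 and Npas4 lie under all Saline points, and in RGC those of Fos, Junb, Egr1 and Nr4a1 do.

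Whether AC and RGC differed from the remaining retina was tested as an interaction of treatment and type within libraries. The reference was the sum of the types other than AC and RGC. This reference depends on its mix of types, and rods made up 42.0% of the named nuclei of IL-27 replicate 10. A shift in that mix and a change of level within types cannot be told apart in it. For AC the difference in log2 fold change was negative for 8 of 8 members, with 4 at an unadjusted p under 0.05 on the lower side, beside 2.52 percent of all genes. No member passed the adjusted threshold in edgeR (smallest adjusted p = 0.988) or DESeq2, beside 0.0 percent of 16963 genes. The difference furthest from 0 relative to its standard error was that of Junb (-0.79 ± 0.18). Egr1 (-0.58 ± 0.16), Nr4a1 (-0.70 ± 0.25) and Npas4 (-0.90 ± 0.40) followed, of which Npas4 was at -1.502 with a mitochondrial limit of 1%. Without the filter on low counts 7 members were lower at an unadjusted p under 0.05, beside 2.24 percent of all genes. Fos had a wider error (-0.70 ± 0.35), and its difference ran from -1.14 with IL-27 replicate 4 left out to -0.45 with IL-27 replicate 10 left out. In the sum of the other types Nr4a1 overlapped between groups, at 23.6, 29.8 and 25.2 CPM in Saline and 22.4, 23.8 and 42.7 CPM in IL-27. The last is replicate 10, while IL-27 replicates 4 and 5 lay under the Saline mean of 26.2 CPM. The difference for AC was -0.28 without replicate 10. Of these other types, BC had a negative log2 fold change of Nr4a1 (-0.57 ± 0.16). The median of the 8 differences was -0.70, and -0.45 without IL-27 replicate 5.

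For RGC the difference was negative for 7 of 7 members, with 3 lower at an unadjusted p under 0.05, beside 3.03 percent of all genes, and 0 at an adjusted p under 0.05 in edgeR or DESeq2, beside 0.0 percent of 13672 genes. They were Junb (-1.498 ± 0.28, adjusted p = 0.555), Fos (-1.14 ± 0.40) and Nr4a1 (-0.68 ± 0.32). With IL-27 replicate 10 left out the difference for Nr4a1 was -0.22 and that for Fos was -0.78. With IL-27 replicate 4 left out they were -1.06 and -1.71. Junb was the member furthest apart between RGC and the other types, where it measured 12.7, 17.8 and 24.1 CPM in Saline and 15.6, 24.5 and 28.8 CPM in IL-27. Without Saline replicate 6 the difference for Junb was -1.83 and its adjusted p was 0.0447, so that 1 member was called, beside 0.00716 percent of all genes. Without the filter on low counts Junb, Fos and Nr4a1 were called, beside 0.123 percent of 27544 genes. The count of members lower at an unadjusted p under 0.05 ran from 1 without Saline replicate 1 to 6 without Saline replicate 6, and was 5 without IL-27 replicate 4, beside 1.98 to 4.03 percent of all genes over the libraries left out. The median of the 7 differences, -0.68, became -1.05 when Saline replicate 6 was left out and -1.34 when IL-27 replicate 4 was.

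**Figure D3:**
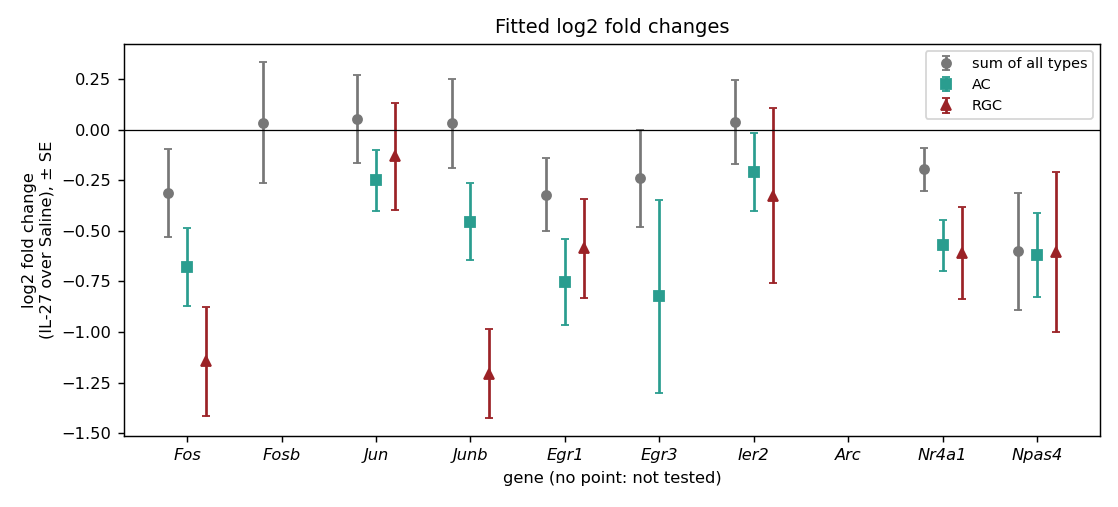
Fitted log2 fold changes of IL-27 over Saline with their standard errors for the sum of all types (grey), AC (green) and RGC (red), with no point where a gene was too low to test. All 8 AC points and all 7 RGC points lie below 0, while the points of the sum lie on both sides.

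In bipolar cells 2 members, Egr1 and Nr4a1, lay lower with IL-27 without overlap, beside 5.76 percent of all genes. Egr1 in BC measured 18.0, 17.7 and 22.1 CPM in Saline and 11.9, 7.83 and 9.96 CPM in IL-27, with no overlap (-0.96 ± 0.17). Its adjusted p was 0.719 in edgeR and 0.0239 in DESeq2, so the call depended on the tool. DESeq2 called 0.0197 percent of all genes in BC. Egr1 was also called by edgeR without the filter on low counts, beside 0.0798 percent of 25059 genes. Nr4a1 measured 16.6, 15.1 and 15.04 CPM in Saline and 12.0, 7.95 and 11.4 CPM in IL-27, also without overlap (-0.57 ± 0.16). These 2 of the 6 members tested were lower at an unadjusted p under 0.05, beside 1.7 percent of all genes. No member was called by edgeR at an adjusted p under 0.05, beside 0.0 percent of 15202 genes, and Egr1 was called by DESeq2. The heat shock genes summed in BC to 513, 426 and 498 CPM in Saline and to 410, 347 and 480 CPM in IL-27, with 7 of 9 tested negative (median -0.15), and their part in the members' values was not tested. The 9 BC clusters share libraries and are not replicates. Among them the mean of Egr1 was lower with IL-27 in 7 and that of Nr4a1 in 8. Means of Fos and Ier2 were lower in 6 each, Junb in 5, Fosb, Jun and Npas4 in 3 each, Egr3 in 2 and Arc in 1. In a given cluster 50.11 to 55.93 percent of all genes had a lower mean. Without overlap, Egr1 was lower in 4 clusters, Ier2 in 3, Fos in 2 and Nr4a1, Jun and Junb in 1 each. This was so for 4.64 to 6.1 percent of all genes in a given cluster. Egr1 was highest, at 35.6 CPM, in the 1026 nuclei of a cluster led by Hs3st4 and Cdh9.

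In photoreceptors most members tested had positive log2 fold changes with all libraries used. In rods 6 of the 7 members tested had positive log2 fold changes (median 0.11), none was called (beside 0.00735 percent of 13605 genes), and none had an unadjusted p under 0.05. Nr4a1 in rods measured 42.4, 58.8 and 44.4 CPM in Saline and 35.6, 51.8 and 98.4 CPM in IL-27, so the groups overlapped and replicate 10 stood apart. Replicate 10 was also the highest library for Fos and Junb in rods, but not for Fosb, Jun, Egr1 or Ier2. Fos measured 24.9, 20.7 and 17.1 CPM in Saline and 14.8, 22.7 and 29.0 CPM in IL-27. Junb measured 34.2, 32.6 and 26.4 CPM in Saline and 24.7, 32.1 and 51.5 CPM in IL-27. No rod fit without replicate 10 is given, so the part of that library in the positive signs was not tested. In cones none of 7 was called by edgeR or DESeq2 (beside 0.0 percent of 11151 genes), and 1 had an unadjusted p under 0.05. This was Junb, which was higher with IL-27, beside 1.68 percent of all genes higher at that threshold. It measured 15.3, 18.1 and 16.9 CPM in Saline and 23.9, 26.2 and 28.9 CPM in IL-27, without overlap and in the opposite direction to RGC (0.66 ± 0.21, adjusted p = 0.999). The share of all genes higher without overlap in cones was not computed. In cones all 12 rod phototransduction genes had negative log2 fold changes (median -0.37), as did 7 of 8 heat shock genes tested (median -0.29), and their part in the members' values was not tested. Egr1 in cones measured 161, 155 and 188 CPM in Saline and 163, 182 and 57.1 CPM in IL-27. Only replicate 10 was low, and Egr3 had the same outlying library, with 12.9, 12.3 and 19.4 CPM in Saline and 10.5, 18.6 and 2.11 CPM in IL-27.

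In glia the libraries of a group differed by more than the groups did for the members tested. In Muller glia, the radial glia of the retina, Fos measured 13.8, 24.5 and 110 CPM in Saline and 22.5, 74.9 and 38.0 CPM in IL-27. Saline replicate 6 and IL-27 replicate 5 were the high libraries, one in each group. Jun followed with 8.31, 15.4 and 64.7 CPM in Saline and 22.8, 40.3 and 12.5 CPM in IL-27. Egr1 measured 18.8, 23.2 and 81.2 CPM in Saline and 32.3, 69.2 and 31.0 CPM in IL-27. The same 2 libraries were high in Junb and Ier2. No member was called among the 7 tested by edgeR or DESeq2 (beside 0.0366 percent of 13661 genes), none had an unadjusted p under 0.05, and the median log2 fold change was 0.07. Fosb, too low to test there, was higher with IL-27 without overlap, at 0.213, 0.252 and 0.883 CPM in Saline and 1.155, 3.93 and 1.98 CPM in IL-27, from 30 UMIs in all. The share of all genes that were so in Muller glia was not computed. Nuclei with UMIs of 3 or more members made up 0.872, 1.14 and 10.2% of Muller glia in Saline and 2.15, 7.73 and 2.79% in IL-27. Astrocytes had a like order, with Jun at 81.7, 136 and 303 CPM in Saline and 135, 208 and 99.6 CPM in IL-27. Jun and Junb were the 2 members tested there and none was called (beside 0.0 percent of 3748 genes). Microglia also had 2 tested and none called (beside 0.0 percent of 8976 genes). In these 2 types no member had an unadjusted p under 0.05 in edgeR, and DESeq2 called none. In HC, endothelial cells and pericytes no member had enough UMIs to be tested, beside 0.0 percent called of 7632, 2558 and 1092 genes.

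**Figure D4:**
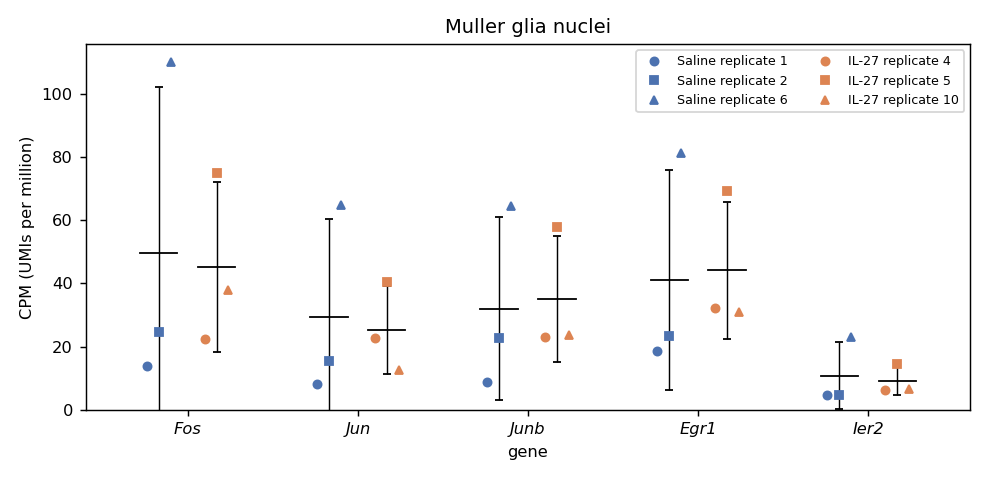
CPM of Fos, Jun, Junb, Egr1 and Ier2 in Muller glia nuclei, with each point a library and bars for the mean and SD of 3 libraries. Saline replicate 6 and IL-27 replicate 5 lie above the other libraries of their group in all 5 genes, and the groups overlap.

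Few nuclei held UMIs of several members. At least 1 UMI of any member was found in 30.8% of AC and 41.8% of RGC, and UMIs of 3 or more members in 2.47% of AC and 6.24% of RGC. Nuclei with 3 or more members numbered 67, 51 and 81 in AC of Saline and 36, 43 and 20 in those of IL-27. In RGC they numbered 39, 30 and 26 in Saline and 19, 12 and 3 in IL-27. Neither set of counts overlapped between groups, and as shares the AC values were 2.99, 2.74 and 3.64% in Saline and 1.93, 2.02 and 1.15% in IL-27.

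The share of AC nuclei with a UMI lay apart between groups for some members, and the groups overlapped for others. A Fos UMI was found in 7.09, 6.28 and 7.42% of AC in Saline and in 5.43, 4.75 and 3.91% in IL-27. After thinning each nucleus to 1000 UMIs, which removes differences in depth, the shares were 1.57, 1.504 and 1.44% in Saline and 1.13, 0.660 and 0.692% in IL-27. These thinned shares did not overlap, nor did those of Npas4, at 0.894, 0.967 and 1.04% in Saline and 0.539, 0.566 and 0.519% in IL-27. Thinned shares of Nr4a1 were 3.44, 3.28 and 3.695% in Saline and 2.53, 2.97 and 2.08% in IL-27, also apart. Those of Egr1 overlapped, at 1.83, 1.07 and 1.94% in Saline and 1.35, 1.602 and 1.095% in IL-27, but not after thinning to 2000 UMIs, at 3.827, 2.507 and 4.234% in Saline and 2.459, 2.209 and 1.715% in IL-27. Those of Junb overlapped at both depths, and at 1000 UMIs were 0.939, 0.859 and 0.811% in Saline and 0.539, 0.566 and 1.095% in IL-27. Thinning left out 13 AC nuclei of Saline and 14 of IL-27. AC nuclei with Egr1 held 1.58 ± 0.06 UMIs of it in Saline and 1.28 ± 0.12 in IL-27 (SD, n = 3), without overlap. Those with Fos held 1.41 ± 0.03 and 1.24 ± 0.16, with overlap, while those with Jun held 1.098 ± 0.009 and 1.17 ± 0.04, which was higher in IL-27 without overlap, and those with Ier2 1.051 ± 0.03 and 1.083 ± 0.04, with overlap. In RGC a Junb UMI was found in 13.5, 17.9 and 13.6% of nuclei in Saline and 6.64, 7.24 and 7.51% in IL-27. The thinned shares of Junb in RGC overlapped, at 1.40, 2.24 and 2.67% in Saline and 1.66, 1.12 and 0.943% in IL-27, but not after thinning to 2000 UMIs, at 3.279, 4.104 and 4.813% in Saline and 0.237, 2.825 and 2.844% in IL-27. The thinned shares of Fos in RGC overlapped as well at 1000 UMIs, at 2.33, 3.358 and 1.6% in Saline and 2.13, 0.838 and 0.472% in IL-27, but not at 2000 UMIs, while those of Nr4a1 in RGC overlapped at both depths. For Fos the share in HC is the nearest measure of UMIs in a neuron type with little of the gene. It was 2.06% without thinning and 0.206% after thinning to 1000 UMIs (1 of 486 nuclei).

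Within AC, 13 clusters were separated without use of the members. All come from the same libraries, so the clusters are not replicates of one another. The mean of Fos was lower with IL-27 in 11 of them, that of Jun in 11, those of Egr1, Nr4a1 and Npas4 in 10 each, that of Junb in 9, those of Ier2 and Egr3 in 7 each, that of Fosb in 10 and that of Arc in 3, while 48.16 to 52.92 percent of all genes tested in AC had a lower mean in a given cluster. Without overlap between groups, Nr4a1 was lower in 4 clusters, Egr1 in 3, Fos in 2, Jun, Junb, Npas4 and Arc in 1 each, and Ier2, Egr3 and Fosb in 0, beside 4.23 to 5.22 percent of all genes in a given cluster. The cluster with the highest Fos level was chosen after its values were seen and is given as a description. It is led by Fgf10, Mei1 and Nell1 and held 1938 of the 12058 AC nuclei (16.1%), with 15.4 to 17.7% in each library. It held 35.4% of the Fos UMIs of AC, 39.1% of those of Egr1, 25.8% of Nr4a1 and 23.7% of Npas4. Fos there measured 36.6, 28.9 and 40.7 CPM in Saline and 23.6, 13.6 and 9.34 CPM in IL-27. Egr1 measured 54.2, 32.3 and 59.1 CPM in Saline and 24.5, 22.3 and 11.7 CPM in IL-27, and neither gene overlapped. Nr4a1 measured 69.7, 42.0 and 74.7 CPM in Saline and 37.8, 24.7 and 20.4 CPM in IL-27. Npas4 measured 12.9, 13.0 and 14.4 CPM in Saline and 7.85, 5.82 and 5.84 CPM in IL-27, and both again did not overlap.

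Outside this cluster the levels were lower and 2 of these 4 genes overlapped. Fos in the other AC nuclei measured 11.5, 10.2 and 12.7 CPM in Saline and 10.2, 8.47 and 6.79 CPM in IL-27, where Saline replicate 2 and IL-27 replicate 4 met. Nr4a1 kept apart, at 27.3, 35.1 and 32.5 CPM in Saline and 24.9, 26.7 and 20.5 CPM in IL-27. Npas4 did too, at 7.65, 8.95 and 7.29 CPM in Saline and 6.50, 6.79 and 3.40 CPM in IL-27. Egr1 overlapped, at 13.0, 10.0 and 16.5 CPM in Saline and 11.2, 9.87 and 8.15 CPM in IL-27.

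In RGC a part of the members had a larger share of their UMIs than of nuclei in those with a UMI of Eomes or Opn4, genes of the intrinsically photosensitive ganglion cells, of which Opn4 encodes melanopsin. This subset was also chosen after the values were seen. It held 150 of 2066 RGC nuclei (7.26%), with 31, 23 and 19 nuclei in Saline and 25, 35 and 17 in IL-27, and 37.1% of the Fos UMIs of RGC, 31.6% of those of Junb, 35.5% of Egr1 and 26.6% of Npas4. For Jun (5.82%) and Ier2 (4.615%) its share of UMIs was below its share of nuclei. Its nuclei were slightly deeper, with a median of 10752.5 UMIs against 9432.5 in the rest. Fos there measured 87.8, 92.6 and 162 CPM in Saline and 48.9, 74.8 and 0 CPM in IL-27, the last from 17 nuclei, in which no Fos UMI was read. Npas4 also lay apart in the subset, while Junb, Egr1 and Nr4a1 overlapped. Junb measured 58.6, 121 and 67.1 CPM in Saline and 48.9, 77.6 and 14.4 CPM in IL-27. In RGC nuclei without these UMIs Fos measured 15.9, 15.9 and 14.2 CPM in Saline and 10.0, 4.41 and 3.54 CPM in IL-27. Junb measured 16.1, 21.7 and 17.9 CPM in Saline and 7.02, 3.78 and 7.58 CPM in IL-27. Both genes therefore stayed apart between groups outside the subset, as did Egr1. Nr4a1 overlapped there, at 36.4, 37.5 and 25.4 CPM in Saline and 28.1, 18.3 and 12.1 CPM in IL-27, and Npas4 overlapped too.

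**Figure D5:**
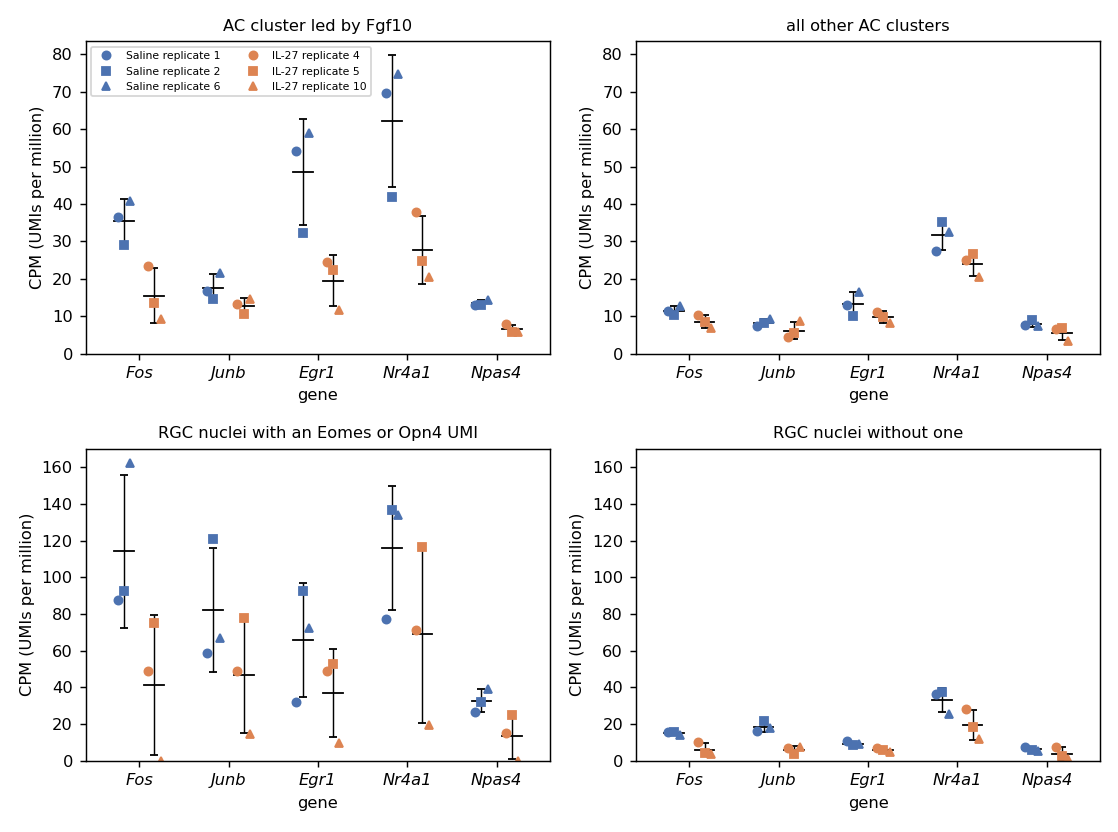
CPM of Fos, Junb, Egr1, Nr4a1 and Npas4 in the AC cluster led by Fgf10, in all other AC nuclei, in RGC nuclei with an Eomes or Opn4 UMI and in RGC nuclei without one, with each point a library and bars for the mean and SD of 3 libraries. Levels are higher in the panels on the left (Fos reaches 40.7 CPM in the AC cluster of a Saline library). The IL-27 points of Fos lie under all Saline points in the AC cluster and in both RGC panels. Those of Junb, Egr1 and Nr4a1 overlap with Saline in the RGC nuclei with an Eomes or Opn4 UMI.

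Other genes of the early response were described from lists of genes with related roles, none of which had a called member in the sum, AC or RGC. Of 6 other EGR and NR4A genes and NAB corepressors, 5 were tested in AC and all 5 had negative log2 fold changes, with a median log2 fold change of -0.48. Nr4a2, another NR4A receptor gene, measured 24.3 ± 0.65 CPM in Saline and 17.3 ± 2.25 CPM in IL-27 in AC (SD, n = 3), with a log2 fold change of -0.48 ± 0.11. In RGC it was 10.7 ± 2.49 and 5.40 ± 2.92 CPM (-0.96 ± 0.33). Nr4a3 had a log2 fold change of -0.86 ± 0.40 in AC and -0.83 ± 0.37 in RGC. Nab1, a corepressor of EGR proteins, was at -0.15 ± 0.09 in AC and 0.03 ± 0.10 in RGC. Of 15 other AP-1 and ATF genes, 11 were tested in AC, 2 of them lower at an unadjusted p under 0.05 (Atf4 and Fosl2), with a list median of -0.03. In RGC Fosl2 was lower and Creb5 higher at that threshold. The 3 with the highest level in AC lay near 0 there, Atf2 at 0.01 ± 0.07, Creb1 at -0.08 ± 0.07 and Mafg at -0.03 ± 0.14.

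Of 30 further immediate early genes, 27 were tested in AC, where 21 were negative (median -0.12) and 5 were lower at an unadjusted p under 0.05 (Btg2, Dusp1, Gadd45g, Plk2 and Sik1), while Ptgs2 was higher. In RGC 17 were tested and 13 were negative (median -0.32), with Btg2 and Per1 lower at that threshold. Among the 3 most abundant in AC, Rheb (-0.08 ± 0.07) and Sgk1 (-0.06 ± 0.09) were near 0, and Plk2, a kinase induced by neuronal activity, was at -0.28 ± 0.10. Of 22 late response genes of neurons, 19 were tested in AC and none passed this threshold (median -0.06). In RGC 5 of 18 were lower at it (Adcyap1, Cartpt, Nrn1, Scg2 and Syt4, median -0.21), and Sorcs3 was at 0.23 ± 0.12. The 32 upstream regulators, kinases and channels were near 0 in AC (median -0.01) and RGC (median 0.06 over 31). In RGC 23 of these 31 were positive, and Elk1, an SRF partner, was higher at an unadjusted p under 0.05 (0.54 ± 0.24). The calcium channel gene Cacna1d was at 0.08 ± 0.06 in AC, the kinase gene Camk2d at -0.04 ± 0.08 and the calcineurin gene Ppp3ca at -0.003 ± 0.08. Of the heat shock genes, Hsp90aa1 (-0.27 ± 0.15), Hspa8 (-0.35 ± 0.12) and Hsp90ab1 (-0.22 ± 0.13) were the most abundant in AC. Of the rod genes, Gnb1 was at -0.05 ± 0.06 and Sag at 0.01 ± 0.19 in AC.

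The genes whose log2(CPM + 1) most resembled the mean of the members over the 66 sums of 11 types and 6 libraries were Sntg2 (Pearson r = 0.75), Btg2 (0.72), Rgs9 (0.71), Azin1 (0.70) and Gm35188 (0.69). The points share libraries and types. Sntg2 was highest in rods (273 CPM) and Btg2, an antiproliferative early gene, in cones (172 CPM).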

How the data were processed

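Single-nucleus RNA of retinas was measured in 6 libraries with the Chromium platform. The deposited values are UMI counts per gene and barcode, which the authors made with Cell Ranger (9.0.1 in the submitters' processing notes and 8.0.1 in the file header) and did not normalize. The genome build is not given in the sources used here. Coordinates of members are from GENCODE M21, in which 99.85% of gene identifiers were found. Barcodes with over 500 UMIs, at least 200 genes and under 5% mitochondrial UMIs were kept, and Scrublet (scanpy 1.11.5, expected rate 8%) removed 6.63 to 7.39% of them per library as doublets. Nuclei were clustered by Louvain (igraph 0.11.9, resolution 0.25, seed 20) on 2000 variable genes, leaving out the members and related lists, and 31 of 34 clusters were named from at least 3 markers. The naming rule was adjusted after the clusters were seen. Nuclei whose log2 UMI total lay more than 2 median absolute deviations away from the median were left out.

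UMIs were summed per library and type and tested with edgeR 4.0.16 in R 4.3.3 (filterByExpr minimum 10, TMM, quasi-likelihood), with p-values adjusted by Benjamini-Hochberg over all genes of a fit and a threshold of 0.05. Standard errors are of log2 fold changes. On simulated counts with a log2 change of 1.5 in 200 genes, 191 were recovered in AC, 187 in RGC and 184 in the sum. False calls numbered 19, 15 and 18. The most negative log2 fold changes of members were smaller in size, at -0.824 in AC, -1.205 in RGC and -0.601 in the sum. Recovery at such sizes, and for genes with counts as low as those of the members, was not tested. The precision is limited by 3 libraries a group and by low counts (44 to 6168 UMIs per member). DESeq2 1.42.0, other scalings, filters and clusterings, and leaving out each library were tried. Members and lists were chosen with earlier results of these data known. Besides the members, the text names the 3 genes of each list with the highest level in AC (1 gene of the rod list is not reported here), list genes with an adjusted p under 0.05, the 5 genes most alike, and, after values were seen, some but not all list genes with an unadjusted p under 0.05.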

Additional observations from a re-analysis of the deposited data

How the results depend on the processing

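Over 16 alternatives, 39 log2 fold changes of members in the sum, AC, RGC and the 2 interactions were recomputed as 618 values, and 591 kept their direction and side of the threshold. All 127 values in AC and all 127 of the interaction for AC did so. In RGC, 2 members (Junb and Fos) were called without a filter on low counts instead of 0, beside 0.0835 percent of all genes. For the difference of RGC from the other types, 3 members (Junb, Fos and Nr4a1) were called without that filter, beside 0.123 percent of all genes. Leaving out libraries gave 0 to 1, the 1 without Saline replicate 6, beside 0.00716 percent. In BC, 1 member (Egr1) was called with DESeq2, beside 0.0197 percent of all genes, and 1 without the filter, beside 0.0798 percent. The cause was not tested. In the sum, Fosb turned to -0.016 with all retained nuclei and to -0.396 with a mitochondrial limit of 1%, Junb to -0.119 with that limit, and Jun, Junb and Ier2 to -0.014, -0.017 and -0.03 without doublet removal. Leaving out each library gave ranges in the sum of -0.457 to 0.002 (Fos), -0.204 to 0.245 (Fosb), -0.118 to 0.354 (Jun), -0.151 to 0.218 (Junb) and -0.213 to 0.195 (Ier2), for Jun in RGC of -0.321 to 0.141, and for the RGC interaction of -0.679 to 0.028 (Jun) and -0.77 to 0.058 (Ier2). The count of members lower at an unadjusted p under 0.05 in RGC was 2 without Saline replicate 2, and the RGC median was -0.983 without IL-27 replicate 4. At the 1% limit Muller glia had no named cluster and could not be fitted, so that sum lacks them. No paired analysis was possible because the Saline and IL-27 libraries share no replicate number. At these depths Arc, and Fosb and Egr3 outside a few types, gave too few UMIs to be tested, and their values are descriptions.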

Other observations

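Of the 34 clusters, 3 could not be named from markers and entered no sum. The one led by Fbln1, Fam129a and Slc6a13 held 661 nuclei, in which Junb measured 28.8 CPM and Fos 12.5 CPM over all libraries and no Npas4 UMI was read. The one led by Hmcn1 and Htr2c held 258 nuclei with Fos at 2.06 CPM and Npas4 at 2.75 CPM, from 3 and 4 UMIs. The one with both rod and BC markers held 148 nuclei with Nr4a1 at 26.5 CPM. These values rest on few nuclei in some libraries and were not compared between groups.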
